A study of Mus musculus with 20 samples.

Results

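The Zfp900-series zinc finger genes are the mouse genes whose name is Zfp followed by a number starting with 9 and having 3 digits, with or without a letter after it, and many are KRAB zinc finger genes that lie side by side. By a rule set with earlier results of these data known, they were chosen by symbol alone, which gave 66 genes of the 53722 listed for oocytes. The same 66 genes were among the 55291 listed for spermatogonia. Their levels were read in 20 RNA libraries, 2 for each of 10 groups, made from germ cells with and without a functional Chd4, which encodes the remodelling ATPase of the NuRD complex. The Ddx4-Cre knockouts (DcKO, genotype Chd4 f/-; Ddx4-Cre Tg/+) and their controls (Dctrl, Chd4 f/+; Ddx4-Cre Tg/+) were non-growing oocytes (NGO) at postnatal days 1 and 5 (P1 and P5) and undifferentiated spermatogonia at P3. These controls therefore carried Cre as well and were heterozygous for the floxed allele. The Gdf9-iCre knockouts (GcKO, Chd4 f/f; Gdf9-iCre Tg/+) and their controls (Gctrl, Chd4 f/f with no Cre) were non-growing and growing oocytes (GO) at P10. Ddx4-Cre acts in germ cells of both sexes and Gdf9-iCre in oocytes. All animals had a background mixed from C57BL/6, 129S1/Sv and FVB/NJ, oocytes came from ovary and spermatogonia from testis, and the labels do not say whether the libraries of a group came from separate animals. All p-values therefore measure the spread between these libraries, which may be technical.

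KRAB zinc finger proteins bind DNA through arrays of C2H2 zinc fingers, each of which contacts a few bases. Their KRAB domain recruits the co-repressor TRIM28 (KAP1), which brings the histone methyltransferase SETDB1, HP1 proteins and histone deacetylases and so leads to heterochromatin. Many of them recognise retrotransposons or imprinted regions, and the family has expanded in rodents through local duplication, so that neighbouring genes are often close copies. In the germ line the family is of interest because DNA methylation is erased and rebuilt there, at a time when silencing of retrotransposons depends on other layers.

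Recovered depth was between 15.3 and 30.1 M reads per library. Chd4 itself was listed lower in the knockout than in the control libraries of every pair of groups, but the difference passed the test only at P1 (limma adjusted p = 0.0136). The adjusted p by limma was 0.351 at P5, 0.615 in P10 NGO, 0.488 in P10 GO and 0.0671 in P3 spermatogonia. It was listed at 4.32 and 1.9 TPM (a level scaled to gene length and to the library's total) in P1 DcKO, against 24.7 and 31.2 TPM in P1 Dctrl, and at 40.2 and 51.7 TPM in P3 DcKO, against 249 and 286 TPM in P3 Dctrl. At P10 it was low in controls too, with 0.631 and 1.54 TPM in GO GcKO and 1.56 and 2.96 TPM in GO Gctrl. These values cover the whole gene, and the labels do not give the deleted part. The oocyte markers Gdf9, Figla, Nobox, Zp3, Bmp15 and Dppa3 summed to between 42174 and 109384 TPM in oocyte libraries and to at most 76.8 TPM in spermatogonia. The 6 markers of undifferentiated spermatogonia summed to between 1704 and 2370 TPM in spermatogonia, to between 201.1 and 372.1 TPM in P10 GO libraries, where Sall4 passed with growth, and to at most 43.3 TPM in the other oocyte libraries. A list of 20 markers of granulosa and Sertoli cells, stroma, endothelium and blood summed to at most 77.1 TPM in oocyte libraries other than the first P10 GO GcKO library, where it reached 103.8 TPM, of which Pecam1 gave 98.6 TPM. Its sum was 150.3 and 185.3 TPM in P3 DcKO, against 114.1 and 60.9 TPM in P3 Dctrl.

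The members lie on 12 chromosomes. With neighbours counted as one cluster when they lay within 2 Mb of each other, 50 members fell into 8 clusters and 16 stood alone. The largest cluster, at chr4:145510759-147848366 (GRCm38), held 16 members, among them Zfp978, Zfp979, Zfp980, Zfp982, Zfp985 and Zfp992. A cluster of 10 lay at chr2:175372436-178078476, with Zfp931, Zfp971 and Zfp972, and another 10 lay at chr17:21567008-22867134, with Zfp944, Zfp945, Zfp946, Zfp947, Zfp948 and Zfp995. By the GENCODE M21 annotation 65 members had a protein-coding transcript, and Zfp939 was a transcribed pseudogene. A KRAB A box was found in the predicted protein of 59 members. The longest reading frame held between 0 and 21 C2H2 fingers with a median of 11, and Zfp957 and Zfp972 held none by the pattern searched. Finger number varied within the chromosome 4 cluster, with 3 each in Zfp979 and Zfp978, 7 in Zfp982, 10 in Zfp985, 11 in Zfp992 and 13 in Zfp980.

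Close copies limit how far reads can be assigned to one gene. For 13 members more than 50% of the 100-base windows of their transcripts also occurred in another gene, for 37 the share was 10% or less, and for 15 it was 0. Zfp967 and Zfp969 shared every window, Zfp935 99.3% and Zfp965 93.4%. The 16 genes of the chromosome 4 cluster ranged from 0% for Zfp933 to 71.9% for Zfp993. Among them the share was 1.73% for Zfp985, 3.06% for Zfp982, 21.5% for Zfp979, 45.6% for Zfp980 and 60.5% for Zfp978. How reads that map to several genes were counted is not given in the sources used here, so values of members with a large share are uncertain, and a share over 10% is given for each of those described. Of the 8 members left out of the oocyte test for low values (TPM under 1 in all but at most 1 library), 7 had a share over 50%, namely Zfp935, Zfp966, Zfp967, Zfp968, Zfp969, Zfp973 and Zfp986, and the eighth was Zfp990.

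**Figure D1:**
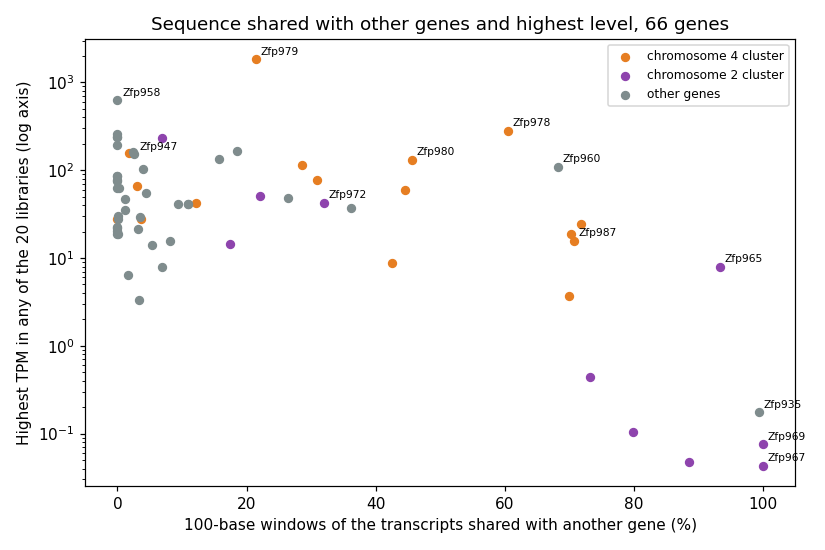
For each of the 66 genes, the percentage of 100-base transcript windows also present in another gene (x axis) and the highest TPM in any of the 20 libraries (y axis, log scale), coloured by cluster. Genes with nearly all windows shared, such as Zfp967, Zfp969 and Zfp935, had low listed values, whereas Zfp979 (21.5% shared) had the highest.

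**Figure D2:**
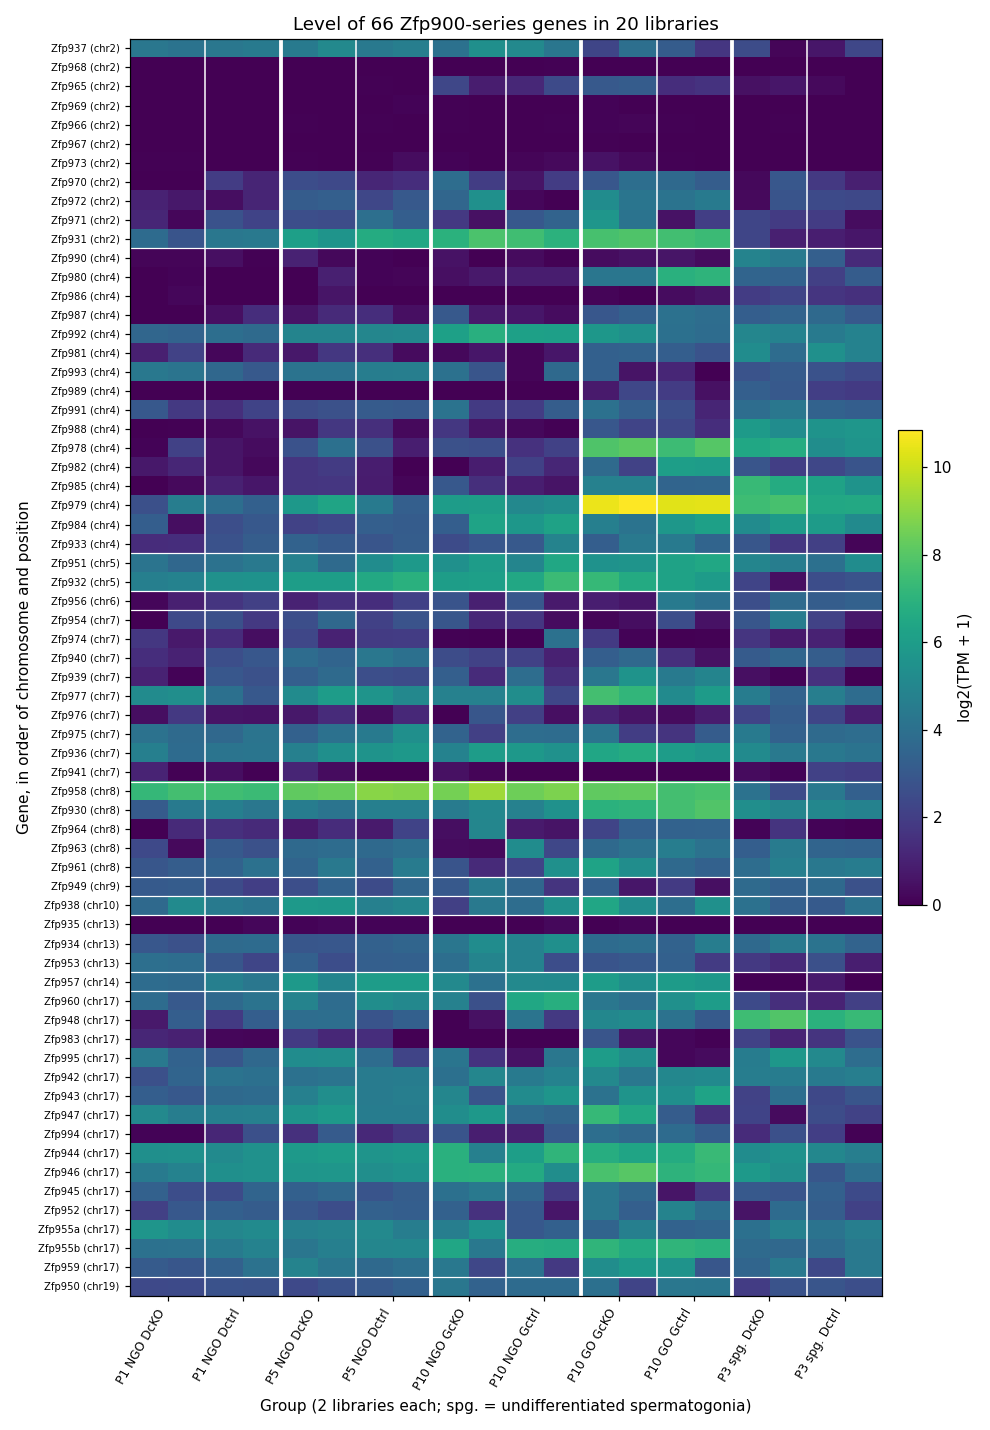
Level of each of the 66 genes as log2(TPM + 1), in order of chromosome and position (rows), in the 20 libraries (columns, 2 per group, knockout left of control). Zfp979, Zfp978, Zfp980 and Zfp982 on chromosome 4 are brighter in control growing than in control non-growing oocytes at P10, and Zfp980 and Zfp982 are dimmer in GO GcKO than in GO Gctrl.

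Promoter windows from RefSeq (GRCm38.p6, 250 bases before to 50 after a gene's start) were found for 56 of the 66 members. Windows of 4 members are printed below, 5′ to 3′ on the strand of the gene, because Zfp979, Zfp980 and Zfp982 lie in one cluster on chromosome 4 and were all high in growing oocytes, whereas Zfp947 on chromosome 17 stood higher in the knockout. Capitals mark the letters TAATTA, those of the Sp1-type GC box (GGGCGG) and those of the E-box (CACGTG). These letters were chosen after the windows had been read. They were searched on both strands, and copies of TAATTA may overlap. The windows are Zfp980 at chr4:145670447-145670746 (plus strand), Zfp982 at chr4:147492167-147492466 (plus strand, of 3 windows listed for it the one with copies of TAATTA), Zfp979 at chr4:147642459-147642758 (minus strand) and Zfp947 at chr17:22165928-22166227 (minus strand).
Zfp980: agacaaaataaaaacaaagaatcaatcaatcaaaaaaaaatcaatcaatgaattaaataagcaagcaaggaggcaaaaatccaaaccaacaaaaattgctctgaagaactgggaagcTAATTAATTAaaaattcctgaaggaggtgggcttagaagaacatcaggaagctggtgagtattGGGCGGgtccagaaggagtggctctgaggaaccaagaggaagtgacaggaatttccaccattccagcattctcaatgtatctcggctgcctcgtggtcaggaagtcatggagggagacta
Zfp982: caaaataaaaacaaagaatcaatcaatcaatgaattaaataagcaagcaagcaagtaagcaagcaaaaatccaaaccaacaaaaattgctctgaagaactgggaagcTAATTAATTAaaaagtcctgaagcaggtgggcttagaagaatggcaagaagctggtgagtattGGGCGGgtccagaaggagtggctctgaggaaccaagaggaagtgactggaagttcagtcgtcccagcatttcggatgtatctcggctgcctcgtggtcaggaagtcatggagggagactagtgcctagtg
Zfp979: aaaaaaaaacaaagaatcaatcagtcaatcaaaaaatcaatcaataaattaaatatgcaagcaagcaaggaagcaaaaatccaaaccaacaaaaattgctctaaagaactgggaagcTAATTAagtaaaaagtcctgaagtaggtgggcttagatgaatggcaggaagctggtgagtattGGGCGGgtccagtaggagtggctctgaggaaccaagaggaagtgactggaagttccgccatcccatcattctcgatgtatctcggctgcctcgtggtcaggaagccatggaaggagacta
Zfp947: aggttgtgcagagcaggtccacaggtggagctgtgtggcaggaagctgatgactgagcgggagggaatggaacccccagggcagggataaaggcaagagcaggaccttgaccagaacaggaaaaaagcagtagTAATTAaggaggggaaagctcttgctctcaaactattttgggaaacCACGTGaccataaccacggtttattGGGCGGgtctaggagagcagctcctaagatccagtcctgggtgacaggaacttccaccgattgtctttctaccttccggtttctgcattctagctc
The Zfp980 and Zfp982 windows were 89.5% and 84.6% identical to that of Zfp979, and the Zfp947 window was 46.6% identical to it. Similar windows were not particular to the genes printed. In the same cluster identity to the Zfp979 window was 82.9% for Zfp987, 81.3% for Zfp985, 74.0% for Zfp988 and for Zfp981, and 67.9% for Zfp984. It was 45.6% for Zfp933 and 41.3% for Zfp993. Of these, Zfp988 was only 3.95 and 1.67 TPM in GO Gctrl. The 56 member genes had 64 windows, and the 10 chromosome 4 cluster genes among them had 12. TAATTA was present in 15 of the 64 windows (15 genes) and in 8 of the 12 (8 genes), against 5.296% of 32817 windows of all genes. GGGCGG was present in 23 of the 64 (21 genes) and in 8 of the 12 (7 genes), against 35.631% of all windows. CACGTG was present in 7 of the 64 (7 genes), against 7.149% of all windows. TATAAA, also searched on both strands, was in none of the 64 and in 13.621% of all windows. Neighbouring members have similar windows and are not independent counts, and a match describes the window only.

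Summed over the 66 genes, the level was lowest at P1 and highest in P10 growing oocytes. The sum was between 670.0 and 771.1 TPM in the 4 P1 libraries, between 1271 and 1511 TPM at P5, between 1592 and 1990 TPM in P10 NGO and between 3469 and 4431 TPM in P10 GO. In spermatogonia it was 1328 and 1394 TPM in DcKO, against 947.9 and 913.2 TPM in Dctrl. Most of the excess in growing oocytes lay in the chromosome 4 cluster, whose sum was 1794 and 1906 TPM in GO Gctrl, against 174.4 and 237.3 TPM in NGO Gctrl. Zfp979 alone made up between 34.4% and 41.5% of the members' sum in P10 GO libraries. These are bulk libraries, in which fewer cells of a type and less RNA per cell cannot be told apart.

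**Figure D3:**
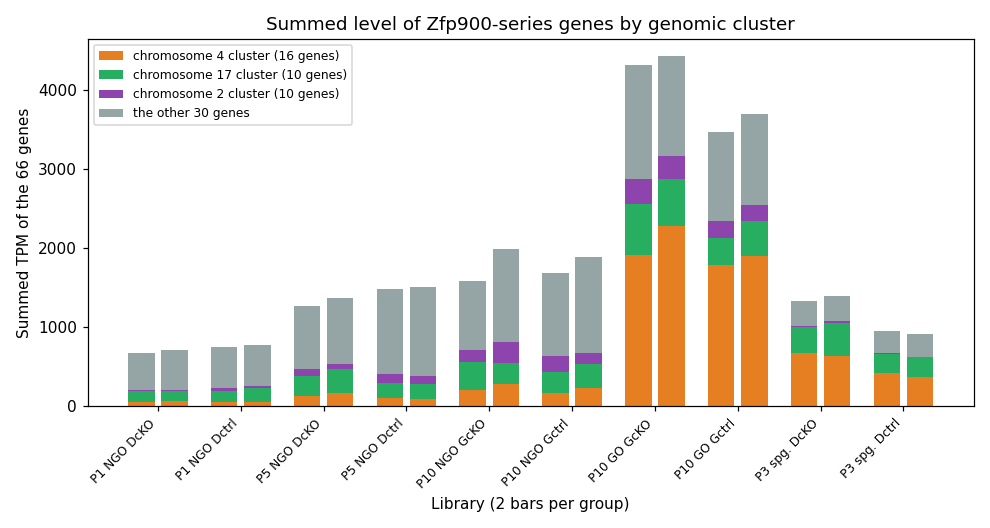
Summed TPM of the 66 genes in each of the 20 libraries (y axis), stacked by genomic cluster, with knockout bars left of control bars. The chromosome 4 cluster (orange) reaches 1794 to 2281 TPM in P10 growing oocytes and stays at or below 283.4 TPM in every non-growing library.

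By mean TPM over the 16 oocyte libraries the highest members were Zfp979 (398.7), Zfp958 (313.0), Zfp931 (112.7), Zfp946 (90.3), Zfp932 (78.5), Zfp944 (73.8), Zfp955b (61.5) and Zfp978 (61.1). They did not share one time course. Zfp958 was high in oocytes of every age, for instance 149 and 193 TPM in P1 DcKO and 181 and 165 TPM in P1 Dctrl. In spermatogonia it was low, at 16.2 and 4.72 TPM in DcKO and 19.7 and 8.91 TPM in Dctrl. Zfp944 stayed between 25.8 and 160.5 TPM over all oocyte libraries. Zfp955b, with 15.8% of windows shared, was 135 and 98.9 TPM in P10 GO GcKO and 135 and 120.1 TPM in P10 GO Gctrl. In P10 NGO it was 83.5 and 19.4 TPM in GcKO and 106.7 and 101.2 TPM in Gctrl, and at P1 and P5 at most 31.4 TPM.

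In spermatogonia the highest members were Zfp948, Zfp979, Zfp985, Zfp978 and Zfp988. Zfp948 was 177 and 241 TPM in DcKO and 119 and 158 TPM in Dctrl, whereas no oocyte library exceeded 37.0 TPM. Zfp988, of the chromosome 4 cluster with 44.6% of windows shared, was 59.9 and 37.999 TPM in DcKO and 46.7 and 51.4 TPM in Dctrl, against at most 6.76 TPM in oocytes. Zfp931 and Zfp957 were in contrast close to 0 in spermatogonia, with at most 3.77 and 0.727 TPM. Oocyte and spermatogonia values come from separate tables, and no test was made between them. Listed values of 0 in all 4 spermatogonia libraries were found for 5 members, and no member was at 0 in all oocyte libraries.

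The comparison of P10 control growing with control non-growing oocytes asks how these genes differ with oocyte growth. Of 58 members tested, 16 passed the test (27.6%), 13 higher and 3 lower in growing oocytes. Of all 20470 genes tested 24.3% passed, 11% higher and 13.2% lower, and of 291 other numbered Zfp genes 61 passed (21%). The members' median log2 fold change was 0.37, against 0 over all genes. The chromosome 4 cluster held 7 of the 13 that rose, together with 1 of the 3 that fell, among 14 tested there.

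Zfp980 was nearly silent in non-growing oocytes. It stood at 118 and 131 TPM in GO Gctrl, against 0.809 and 0.821 TPM in NGO Gctrl (log2 fold change 6.11, SE 0.41, limma adjusted p = 1.53e-06). Zfp979 reached 1299 and 1335 TPM in GO Gctrl, against 32.02 and 39.4 TPM in NGO Gctrl (log2 fold change 5.17, SE 0.54, limma adjusted p = 2.76e-05). Zfp978, with most of its windows shared, was 173 and 249 TPM in GO Gctrl and 1.91 and 3.22 TPM in NGO Gctrl (log2 fold change 5.90, SE 0.70, limma adjusted p = 7.66e-05). These 3 genes had the smallest p of the members in this comparison, and their groups were far apart. Zfp982, a gene reported to act on pluripotency genes in mouse embryonic stem cells, was 66.4 and 62.9 TPM in GO Gctrl, against 3.31 and 1.25 TPM in NGO Gctrl (log2 fold change 4.40, SE 0.60, limma adjusted p = 0.000195). Zfp985, with few shared windows, was lower than these in growing control oocytes, at 10.2 and 10.4 TPM in GO Gctrl and 0.858 and 0.498 TPM in NGO Gctrl (log2 fold change 2.76, SE 0.51, limma adjusted p = 0.00173). Their neighbour Zfp992, with 28.6% of windows shared, moved the other way. It stood at 14.8 and 13.4 TPM in GO Gctrl, against 71.5 and 67.8 TPM in NGO Gctrl (log2 fold change -2.23, SE 0.29, limma adjusted p = 0.000131).

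Outside chromosome 4 the same comparison called Zfp930 and Zfp972 among the 8 with the smallest p. Zfp930 on chromosome 8, with no shared window, was 194 and 237 TPM in GO Gctrl and 26.3 and 43.3 TPM in NGO Gctrl (log2 fold change 2.63, SE 0.41, limma adjusted p = 0.000526). Zfp972 on chromosome 2, with 31.98% of windows shared and no finger found, was 16.6 and 20.9 TPM in GO Gctrl, against 0.15 and 0 TPM in NGO Gctrl (log2 fold change 4.20, SE 0.60, limma adjusted p = 0.000298). Its NGO Gctrl value rested on 1 read, against 244 reads in GO Gctrl, a ratio relative to depth of 257 with an exact 95% interval of 45.8 to 10206 that covers counting error only. The other 8 called were Zfp987 (70.8% shared), Zfp981 (12.2%), Zfp970 (17.4%), Zfp952, Zfp946 and Zfp956, which rose, and Zfp958 and Zfp937 (10.9% shared), which fell. Of all 16, 7 had a share of common windows of 10% or less.

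**Figure D4:**
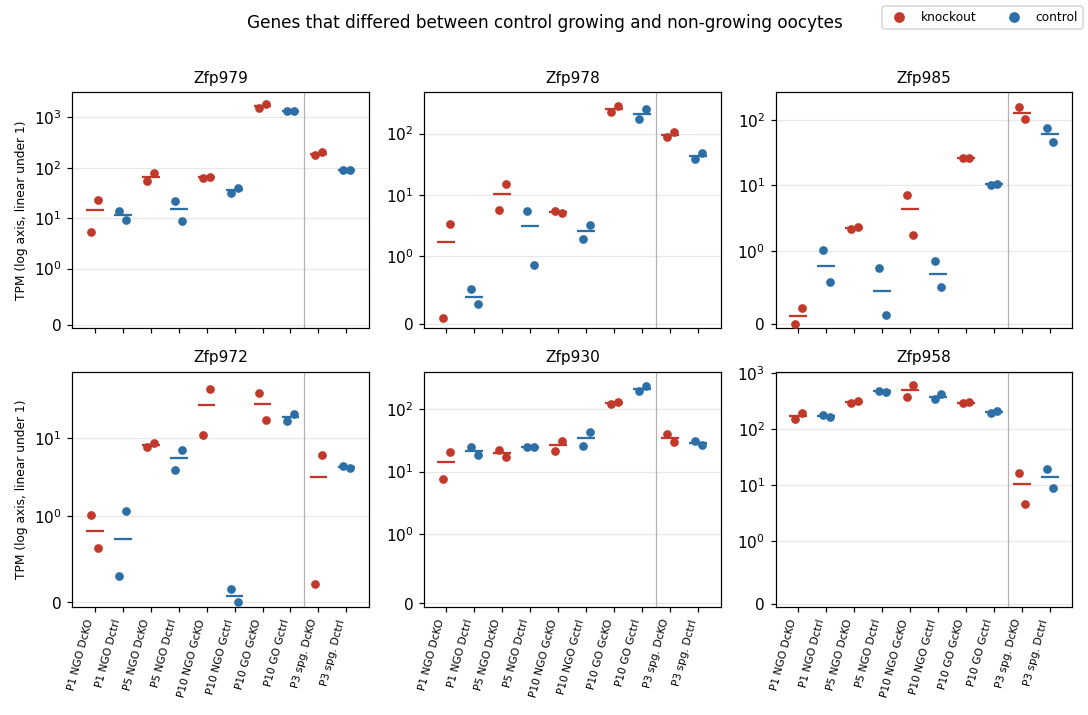
TPM of 6 members (y axis, log scale, linear under 1) in the 10 groups (x axis), with 1 point per library and a line at the mean of the 2 libraries, knockout in red and control in blue. Zfp979, Zfp978, Zfp985, Zfp972 and Zfp930 are higher in P10 GO Gctrl than in P10 NGO Gctrl, whereas Zfp958 is lower.

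With age, P5 Dctrl was set against P1 Dctrl non-growing oocytes. Here 4 of 58 members rose and none fell (6.9%), against 4.7% of all genes. Of 291 other numbered Zfp genes 6 rose and none fell (2.06%). Log2 fold changes were above 0 for 46 of the 58 members, 181 of those 291 genes and 10287 of all 20470 genes. The medians were 0.35, 0.21 and 0.005. Zfp958 was 479.6 and 461 TPM in P5 Dctrl, against 181 and 165 TPM in P1 Dctrl (log2 fold change 1.44, SE 0.22, limma adjusted p = 0.00291). Zfp931 was 100.3 and 89.8 TPM in P5 Dctrl and 18.98 and 20.2 TPM in P1 Dctrl (log2 fold change 2.22, SE 0.37, limma adjusted p = 0.00485). Neither pair of groups overlapped, which adds no support, because the genes were picked by the test on these libraries. Zfp932, reported to bind endogenous retroviruses in mouse embryonic stem cells and with 18.5% of windows shared, was 93.5 and 116 TPM in P5 Dctrl and 43.6 and 44.7 TPM in P1 Dctrl (log2 fold change 1.22, SE 0.31, limma adjusted p = 0.0433). Zfp992 was 30.2 and 32.8 TPM in P5 Dctrl and 14.05 and 12.5 TPM in P1 Dctrl (log2 fold change 1.19, SE 0.29, limma adjusted p = 0.0358). The calls for Zfp932 and Zfp992 were lost without any one of the 4 libraries, which left 1 or 2 members called, and 11 were called when only these 2 groups were fitted.

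Growing oocytes labelled as Chd4 knockout were compared as P10 GO GcKO against Gctrl. Of 58 members, 9 passed the test (15.5%), 6 higher and 3 lower in GcKO, against 13.8% of all genes (9.12% higher and 4.69% lower) and 31 of 291 other numbered Zfp genes (10.7%). The median was 0.33 for the members and 0.06 over all genes. GcKO libraries lay wholly above the controls for 21 of the 58 members tested (36.2%, against 30.3% of all genes tested) and wholly below for 12 (20.7%, against 18%). The 3 that fell were Zfp980, Zfp982 and Zfp956, and the 6 that rose were Zfp947, Zfp995, Zfp945, Zfp992, Zfp971 and Zfp940. Of the 9, 6 had a share of common windows of 10% or less.

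Zfp947, at chr17:22144359-22166190 (GRCm38), had the smallest p. It was 153 and 90.4 TPM in GO GcKO, against 7.79 and 1.82 TPM in GO Gctrl (log2 fold change 4.57, SE 0.47, limma adjusted p = 6.02e-05), and 2.63% of its windows were shared. Zfp995 and Zfp945 of the same chromosome 17 cluster rose as well. Zfp995, at chr17:21879570-21909926, was 62.1 and 40.4 TPM in GO GcKO, against 0.125 and 0.254 TPM in GO Gctrl (log2 fold change 5.43, SE 1.09, limma adjusted p = 0.00556). The control value of Zfp995 rested on 3 and 6 reads, so that its fold change depends on the pseudocount and was 7.48 with 0.1 in place of 1. Zfp945, at chr17:22846697-22867134 and with 18 fingers, was 18.8 and 11.7 TPM in GO GcKO, against 0.518 and 2.5 TPM in GO Gctrl (log2 fold change 2.78, SE 0.63, limma adjusted p = 0.0109). The whole chromosome 17 cluster summed to 654.9 and 594.6 TPM in GO GcKO and to 338.9 and 442.2 TPM in GO Gctrl. Log2 fold changes were above 0 for 7 of its 10 members, and 3 of the 10 were called. Of all 20470 genes, 11048 were above 0 and 13.8% were called.

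Among the chromosome 4 genes that rose with growth, Zfp980 and Zfp982 fell in the knockout, whereas Zfp979 and Zfp978 did not pass. Zfp980 was 18.1 and 18.4 TPM in GO GcKO, against 118 and 131 TPM in GO Gctrl (log2 fold change -2.70, SE 0.41, limma adjusted p = 0.000844). Zfp982 was 12.6 and 3.42 TPM in GO GcKO, against 66.4 and 62.9 TPM in GO Gctrl (log2 fold change -3.08, SE 0.60, limma adjusted p = 0.00454). Both stayed above their P10 NGO GcKO values of 0.344 and 0.649 TPM for Zfp980 and 0 and 0.832 TPM for Zfp982. Zfp979, with the closely similar promoter window, was 1490.5 and 1839 TPM in GO GcKO and 1299 and 1335 TPM in GO Gctrl (log2 fold change 0.33, SE 0.54, limma adjusted p = 0.85). Zfp978 was 229 and 279 TPM in GO GcKO and 173 and 249 TPM in GO Gctrl (log2 fold change 0.28, SE 0.70, limma adjusted p = 0.968). The Zfp978 groups overlapped and the Zfp979 groups did not, and the difference between these and the called genes was not tested. Zfp992, which was lower in growing than in non-growing control oocytes, was 52.4 and 42.9 TPM in GO GcKO, against 14.8 and 13.4 TPM in GO Gctrl (log2 fold change 1.68, SE 0.29, limma adjusted p = 0.00199). The comparisons of growth and of knockout share the GO Gctrl libraries, and their values are therefore not independent of each other.

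The other 3 called lie on chromosomes 2, 6 and 7. Zfp971, with 22.1% of windows shared, was 50.9 and 16.7 TPM in GO GcKO, against 0.43 and 3.06 TPM in GO Gctrl (log2 fold change 3.66, SE 0.69, limma adjusted p = 0.00378). Zfp940, at chr7:29833620-29853669, was 8.55 and 11.7 TPM in GO GcKO and 1.79 and 0.396 TPM in GO Gctrl (log2 fold change 2.48, SE 0.49, limma adjusted p = 0.00519). Zfp956, at chr6:47953390-47965300, where no KRAB A box was found, was 0.853 and 0.571 TPM in GO GcKO, against 21.5 and 14.98 TPM in GO Gctrl (log2 fold change -3.47, SE 0.73, limma adjusted p = 0.00737). In none of the 9 did the GcKO and Gctrl libraries overlap, which adds no support, because the genes were picked by the test on these libraries.

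Of the 9 calls, those for Zfp947, Zfp995 and Zfp992 held under every alternative tried. The calls for Zfp980 and Zfp982 were lost with a pseudocount of 0.1 (limma adjusted p = 0.0672 and 0.105), and that for Zfp982 also by voom on recovered reads (limma adjusted p = 0.0686). Fitting only these 2 groups ended the calls for Zfp940, Zfp945 and Zfp971 (limma adjusted p = 0.0713, 0.0641 and 0.0543). The call for Zfp945 was also lost without the first GcKO or the first Gctrl library, that for Zfp940 without the second Gctrl library and that for Zfp956 without the first Gctrl library. The summed oocyte markers were 98451 and 109384 TPM in GO GcKO and 48325 and 49745 TPM in GO Gctrl, almost all of it Dppa3, and the 20 other-cell markers summed to 103.8 and 13.5 TPM in GO GcKO and 4.53 and 1.29 TPM in GO Gctrl, with 7 and 12 of them at 0 in GcKO and 14 and 16 in Gctrl. Without the first GcKO library, in which Pecam1 was high, 8 of the 9 members stayed past the test. Among the oocyte markers, Bmp15, which encodes a growth factor of the oocyte, fell in GcKO, with 132 and 98.2 TPM in GO GcKO and 599 and 391 TPM in GO Gctrl (log2 fold change -2.08, SE 0.59, limma adjusted p = 0.0347), while Figla, Nobox and Dppa3 rose and Gdf9 and Zp3 did not pass. The part of these markers in the result was not tested further.

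**Figure D5:**
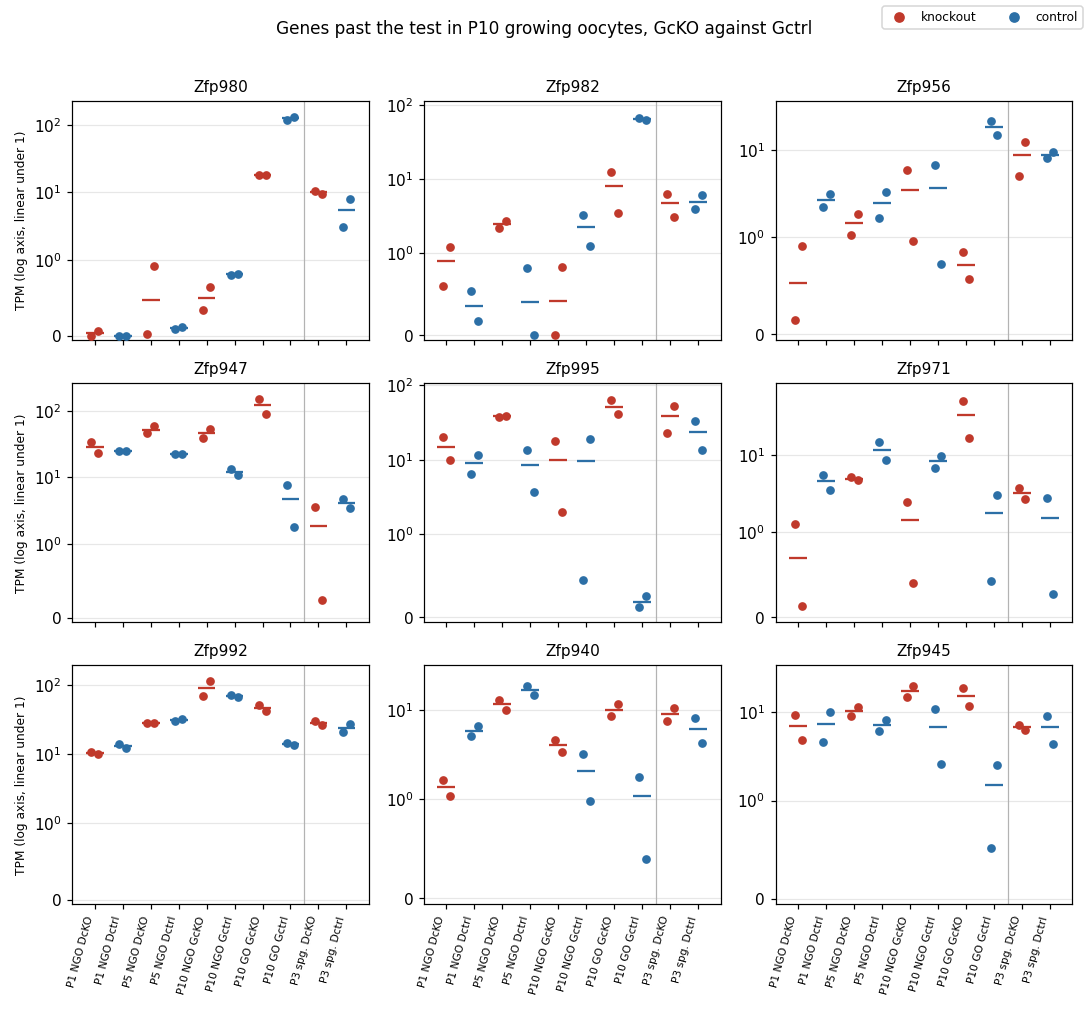
TPM of the 9 members called in P10 growing oocytes (y axis, log scale, linear under 1) in the 10 groups (x axis), with 1 point per library and a line at the mean of the 2 libraries, knockout in red and control in blue. In P10 GO, Zfp980, Zfp982 and Zfp956 lie lower in GcKO than in Gctrl and the other 6 lie higher.

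In P10 non-growing oocytes 3 of 58 members passed between GcKO and Gctrl (5.17%), 2 higher and 1 lower, against 1.92% of all genes and 15 of 291 other numbered Zfp genes (5.15%). All 3 shared more than 10% of their windows with another gene. Zfp972 was 11.05 and 42.7 TPM in NGO GcKO, against 0.15 and 0 TPM in NGO Gctrl (log2 fold change 4.42, SE 0.60, limma adjusted p = 0.00616). With 388 reads in NGO GcKO and 1 in NGO Gctrl, the ratio relative to depth was 323 with an exact 95% interval of 57.7 to 12799 for counting error. Zfp960, with 68.3% of windows shared, mostly with Zfp97, was 26.3 and 5.2 TPM in NGO GcKO and 85.9 and 109 TPM in NGO Gctrl (log2 fold change -2.91, SE 0.60, limma adjusted p = 0.03). The GcKO libraries of both genes lay far from each other as well as from the controls. Zfp955a, with 26.5% shared, was 23.9 and 45.3 TPM in NGO GcKO and 6.91 and 8.96 TPM in NGO Gctrl (log2 fold change 1.94, SE 0.43, limma adjusted p = 0.0427). None of the 3 passed when only these 2 groups were fitted. Without the first GcKO library 7 members passed, and without the first Gctrl library 6.

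Whether the knockout effect differed between growing and non-growing oocytes was tested as an interaction, and 5 of 58 members passed (8.62%), 3 higher and 2 lower, against 7.46% of all genes. Zfp971 was 2.47 and 0.404 TPM in NGO GcKO and 6.83 and 9.86 TPM in NGO Gctrl, lower values that did not pass on their own, beside its rise in growing oocytes (difference of log2 fold changes 5.72, limma adjusted p = 0.0048). For Zfp972 the growing values were 38.1 and 17.3 TPM in GcKO and 16.6 and 20.9 TPM in Gctrl (difference -3.97, limma adjusted p = 0.0163). Its rise in the knockout passed in non-growing oocytes, where its control was nearly at 0, and not in growing ones. Zfp947 was 38.7 and 54.2 TPM in NGO GcKO and 13.4 and 11.002 TPM in NGO Gctrl, which did not pass on its own (limma adjusted p = 0.0772, difference 2.74, limma adjusted p = 0.0297). The differences for Zfp980 and Zfp932 were -2.42 and 1.72 (limma adjusted p = 0.0259 and 0.0335). Zfp980 was only 0.809 and 0.821 TPM in NGO Gctrl, so that a fall like that in growing oocytes could not have been seen there. For Zfp932 the growing values were 154 and 97.8 TPM in GcKO and 74.7 and 60.05 TPM in Gctrl, and the non-growing values 65.3 and 69.6 TPM in GcKO and 90.7 and 167 TPM in Gctrl. No member passed when only the 4 P10 groups were fitted, and leaving out single libraries gave between 1 (without the second GO Gctrl) and 9 (without the first NGO GcKO).

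At P1 no member passed between DcKO and Dctrl by limma, against 1.7% of all genes. An unadjusted limma p under 0.05 was found for 10 of 58 members, 1 higher and 9 lower. Over all genes it was found for 10.2%, 1016 higher and 1076 lower. The members' median was -0.32, against 0 over all genes, and DcKO libraries lay wholly below Dctrl for 25 of the 58 members tested (43.1%, against 22.5% of all genes tested) and wholly above for 7 (12.1%, against 18.4%). The smallest p belonged to Zfp940, with 1.65 and 1.08 TPM in DcKO and 5.14 and 6.66 TPM in Dctrl (log2 fold change -1.55, SE 0.49, limma adjusted p = 0.2). Zfp931 was 13.02 and 6.08 TPM in DcKO and 18.98 and 20.2 TPM in Dctrl (log2 fold change -1.05, SE 0.37, limma adjusted p = 0.268). The groups of both genes were apart although neither passed. Zfp939 was 1.04 and 0.0727 TPM in DcKO and 6.74 and 5.4 TPM in Dctrl (log2 fold change -2.25, SE 0.80, limma adjusted p = 0.272). Zfp933 was 1.6 and 1.69 TPM in DcKO and 5.71 and 8.13 TPM in Dctrl (log2 fold change -1.57, SE 0.60, limma adjusted p = 0.342). With a pseudocount of 0.1, 1 member passed, lower in DcKO, and with voom on recovered reads 1 passed. The 20 other-cell markers summed to 35.8 and 36.9 TPM in P1 DcKO and 26.3 and 29.0 TPM in P1 Dctrl, and their part in these values was not tested.

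At P5 again no member passed by limma, against 1.36% of all genes, and none passed by voom. An unadjusted limma p under 0.05 was found for 8 members, 5 higher and 3 lower. Over all genes it was found for 11.8%, 1550 higher and 871 lower. Zfp979 came nearest, with 53.3 and 79.2 TPM in DcKO and 21.4 and 8.8 TPM in Dctrl (log2 fold change 2.16, SE 0.54, limma adjusted p = 0.0837). Zfp947 was 45.9 and 58.1 TPM in DcKO and 22.6 and 22.7 TPM in Dctrl (log2 fold change 1.15, SE 0.47, limma adjusted p = 0.345). The groups were apart for both genes, with DcKO higher, and for Zfp958 and Zfp951, given next, with DcKO lower. All 4 were named for their small p, and how often groups lay apart over all genes was not counted at P5. Zfp958 was 293 and 318 TPM in DcKO and 479.6 and 461 TPM in Dctrl (log2 fold change -0.62, SE 0.22, limma adjusted p = 0.244), and Zfp951 was 25.8 and 12.6 TPM in DcKO and 37.5 and 55.7 TPM in Dctrl (log2 fold change -1.29, SE 0.48, limma adjusted p = 0.28). Log2 fold changes were above 0 for 27 of 58 members and for 10203 of all 20470 genes, with medians of -0.01 and 0. In the chromosome 17 cluster 9 of 10 were above 0 with a median of 0.63, and the cluster summed to 258.3 and 301.9 TPM in DcKO and 182.7 and 190.4 TPM in Dctrl. The 20 other-cell markers summed to 29.3 and 77.1 TPM in P5 DcKO and 14.0 and 11.3 TPM in P5 Dctrl, and among them the granulosa cell gene Inha passed. Their part in these values was not tested. Between the DcKO effects at P5 and P1 no member passed (0.313% of all genes did), 4 had an unadjusted p under 0.05 (7.35% of all genes did) and 1 passed by voom.

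In P3 spermatogonia none of the 55 members tested passed between DcKO and Dctrl by limma, and neither did any of the 18671 genes (0%). An unadjusted limma p under 0.05 was found for 8 members, 7 higher and 1 lower. Over all genes it was found for 16.1%, 2073 higher and 931 lower. Among other numbered Zfp genes 23 were higher and 5 lower. No member passed by voom. In the chromosome 4 cluster 12 of 16 members had a log2 fold change above 0, against 10467 of all 18671 genes. The cluster's median was 0.63, against 0.09 over all genes. Zfp979 was 176 and 206 TPM in DcKO and 88.9 and 91.6 TPM in Dctrl (log2 fold change 1.07, SE 0.16, limma adjusted p = 0.117). Zfp978 was 87.03 and 105 TPM in DcKO and 38.6 and 48.6 TPM in Dctrl (log2 fold change 1.12, SE 0.22, limma adjusted p = 0.148). The groups were apart for both genes, and for Zfp985 and Zfp946, given next, with both DcKO libraries higher. All 4 were named for their small p, and how often groups lay apart over all genes was not counted in spermatogonia. Zfp985 was 155 and 102 TPM in DcKO and 74.3 and 46.5 TPM in Dctrl (log2 fold change 1.08, SE 0.31, limma adjusted p = 0.206). Zfp946 of the chromosome 17 cluster was 55.6 and 39.8 TPM in DcKO and 6.44 and 14.6 TPM in Dctrl (log2 fold change 2.16, SE 0.44, limma adjusted p = 0.152). Summed markers of stroma, endothelium and blood were also higher in DcKO. The 5 stroma markers, for example, were at 32.6 and 38.1 TPM in DcKO and 6.62 and 10.2 TPM in Dctrl. Most of this was Col1a1, at 24.1 and 27.4 TPM in DcKO and 5.60 and 7.81 TPM in Dctrl. Foxl2 and Lum were at 0 in all 4 libraries. The sums of the 7 granulosa and Sertoli markers overlapped, at 62.2 and 91.0 TPM in DcKO and 82.9 and 29.5 TPM in Dctrl. Their part in these values was not tested.

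Among 21 genes of the co-repressor machinery that KRAB zinc finger proteins use, none passed at P1 or P5, in P5 against P1 controls or in spermatogonia. Few of all genes passed there either, with 1.7% at P1, 1.36% at P5, 4.7% in P5 against P1 controls and 0% in spermatogonia. In P10 NGO the share was 1.92%. In P10 NGO only Smarcad1, a remodeller that binds TRIM28, passed, with 9.65 and 12.6 TPM in GcKO and 1.00 and 0.279 TPM in Gctrl (log2 fold change 2.91, SE 0.48, limma adjusted p = 0.0119). In P10 GO it went the other way, with 2.32 and 0.845 TPM in GcKO and 10.01 and 7.03 TPM in Gctrl (log2 fold change -1.93, SE 0.48, limma adjusted p = 0.0184). In all, 4 of the 21 passed between GO GcKO and Gctrl, 1 higher and 3 lower, where 13.8% of all genes passed. Of the others, the deacetylase gene Hdac1 rose in GcKO (log2 fold change 1.45, SE 0.44, limma adjusted p = 0.0469). Resf1, whose product works with SETDB1, fell (log2 fold change -0.84, SE 0.24, limma adjusted p = 0.0335). Dnmt3l, the cofactor of de novo DNA methylation in oocytes, fell to 0.134 and 0 TPM in GO GcKO, against 3.96 and 11.9 TPM in GO Gctrl (log2 fold change -2.91, SE 0.38, limma adjusted p = 0.00032). Trim28 was 15.3 and 6.38 TPM in GO GcKO and 6.65 and 4.7 TPM in GO Gctrl, and Setdb1 17.3 and 13.99 TPM in GO GcKO and 20.2 and 20.5 TPM in GO Gctrl, and neither passed. With growth, 4 of the 21 rose and 3 fell in control oocytes, where 11% of all genes rose and 13.2% fell.

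Of 15 zinc finger genes with a described role, members included, 14 were tested in oocytes. Zfp57, which protects methylation at imprinted regions, fell in the knockout at both early ages. It was 45.7 and 39.1 TPM in P1 DcKO, against 139.8 and 130.1 TPM in P1 Dctrl (log2 fold change -1.65, SE 0.20, limma adjusted p = 0.00191), and 89.7 and 85.8 TPM in P5 DcKO, against 207 and 250.3 TPM in P5 Dctrl (log2 fold change -1.37, SE 0.20, limma adjusted p = 0.00813). Of the 6 oocyte markers, Gdf9 and Zp3 were also called lower in P1 DcKO (log2 fold changes -3.27 and -2.09, limma adjusted p = 0.00215 and 0.00793). None of the 6 passed at P5. There the log2 fold changes of Gdf9, Zp3 and Bmp15 were -1.35, -1.35 and -1.32 (limma adjusted p = 0.155, 0.081 and 0.403). Those of Figla, Nobox and Dppa3 were -0.40, -0.40 and -0.07. The part of these markers in the Zfp57 values was not tested. No other gene of the zinc finger list passed in the DcKO oocytes, where 1.7% of all genes passed at P1 and 1.36% at P5. In P10 GO only the member Zfp992 did, among 14, where 13.8% of all genes passed.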

How the data were processed

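RNA was extracted with a low-input kit and sequenced as paired reads of 150 bases, per the labels. The submitters' processing notes name GRCm38 and the tools featureCounts 2.0.1, SAMtools 1.9, STAR 2.5.4b and Trimmomatic 0.39. The authors deposited TPM per gene, with the 16 oocyte libraries and the 4 spermatogonia libraries in separate tables. The annotation, strandedness, handling of multi-mapping reads and the way TPM was made are not given in the sources used here.

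Each table was fitted as a whole with limma 3.58.1 (R 4.3.3, two-sided moderated test with trend) on log2(TPM + 1), with group means, for genes that reached 1 TPM in 2 or more libraries of the fit, and p-values were adjusted by Benjamini-Hochberg over all genes tested, with a threshold of 0.05. A fold change on this scale understates the change of low genes. In total 20470 genes were tested in oocytes and 18671 in spermatogonia. The code was tested on simulated data. Multiplying TPM by GENCODE M21 exon lengths gave whole reads within 0.05 for 98.6% to 99.2% of values under 20 reads, and these reads gave depth and an added count-based alternative (voom in limma), chosen after seeing the data.

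Members and gene lists were chosen with earlier results of these data known. Named were, in each knockout comparison, up to 12 members past the test by smallest p, or the 4 with the smallest p where none passed, and in each control comparison or difference up to 8, plus the 8 highest in oocytes and the 5 highest in spermatogonia. Other-cell, oocyte and spermatogonia markers are given as sums. KRAB A boxes and C2H2 fingers were matched in the longest reading frame of GENCODE M21 transcripts. Promoter windows are from RefSeq. Alternatives tried were a pseudocount of 0.1, filters of no minimum and of 5 TPM, quantile normalization, fits of only the compared groups, a replicate block and leaving out each library.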

Additional observations from a re-analysis of the deposited data

Results flagged for a closer look

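In 5 members the effect of the GcKO knockout differed between P10 growing and non-growing oocytes by the interaction test in limma over all 16 oocyte libraries. The growing minus non-growing difference of log2 fold changes was 5.72 for Zfp971, -3.97 for Zfp972, -2.42 for Zfp980, 2.74 for Zfp947 and 1.72 for Zfp932. For Zfp971 the log2 fold change, GcKO over Gctrl, was 3.66 in growing and -2.06 in non-growing oocytes. For Zfp972 it was 0.45 in growing and 4.42 in non-growing oocytes. For Zfp980 it was -2.70 in growing and -0.29 in non-growing oocytes, where the gene was under 1 TPM in all 4 libraries. A fall of the same size could not have been seen at that level. For Zfp947 it was 4.57 in growing and 1.83 in non-growing oocytes. For Zfp932 it was 0.86 in growing and -0.86 in non-growing oocytes. Zfp972, Zfp971, Zfp980 and Zfp932 share between 18.5% and 45.6% of their windows with other genes, and Zfp947 shares 2.63%.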

How the results depend on the processing

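No value changed direction. The 29 called values of named members were each recomputed under 10 to 15 alternatives, 339 values in all, of which 279 stayed past the threshold and 60 did not, and the 12 uncalled values stayed below it in all 128. In P5 against P1 Dctrl the count of members past the test, 4, was 11 with only the compared groups fitted, 2 by voom on recovered reads and 1 to 2 with single libraries left out. For P10 NGO GcKO, 3 became 1 with no filter, 0 with only the compared groups fitted, 5 with quantile normalization and 2 to 7 with single libraries left out. For P10 GO GcKO, 9 became 7 to 11 with single libraries left out, and for P10 GO against NGO Gctrl 16 became 11 to 20. For the growing minus non-growing difference, 5 became 0 with only the compared groups fitted and 1 to 9 with single libraries left out. At P1 the count was 1 with a pseudocount of 0.1 and 1 by voom, and the P5 minus P1 difference was 1 by voom. With single libraries left out it stayed at 0 for P1, P5, P3 and the P5 minus P1 difference. The cause was not tested. Fits of the compared groups alone rest on fewer libraries, and a group left with 1 library is assumed to vary like the others. Replicate numbers are shared between groups but nothing says that they pair libraries. Deviations of same-numbered libraries correlated between -0.05 and 0.02, and a replicate block gave 3 members for P5 against P1 Dctrl, 3 for P10 NGO, 9 for P10 GO, 16 for growth, 5 for the growing minus non-growing difference and 0 elsewhere. With 2 libraries per group, differences within their spread were not detectable at this depth and number.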
